A study of Homo sapiens with 8 samples.

Results

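In MT-1, an established line of adult T cell leukaemia (ATL) cells, the EZH2 inhibitor EPZ-6438 (tazemetostat) was added to OR21, a DNA demethylating agent, and the combination array was set against the array of cells that received OR21 alone. The comparison answers what blocking EZH2 added to gene expression where the demethylating agent was already present. Its members were all transcript probe sets with a gene symbol, 17709 of the 21448 transcript probe sets on the array, for 17687 genes. The OR21 array came from MT-1 cells given 500 nM OR21, and the combination array (named Comb in the labels) from MT-1 cells given 500 nM OR21 and 2500 nM EPZ-6438. Both were exposed for 96 h, with each compound added at seeding and again at 48 h. Untreated MT-1 cells and MT-1 cells given 2500 nM EPZ-6438 alone served for comparison, as did MT-2 cells, a line infected with HTLV-1, untreated or given 100 nM OR21, 500 nM EPZ-6438 or both. Each of these 8 groups was 1 array of 1 culture of 1 cell line. There was therefore no replicate error within MT-1, and differences within the line carry no test.

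EZH2 is the catalytic subunit of PRC2, the Polycomb complex that places methyl groups on lysine 27 of histone H3 and so keeps genes silent. DNA methylation at CG dinucleotides of promoters is a separate mark of silent genes, kept through cell division by DNMT1. In many cancers a silent gene carries one mark or the other, and the marks can replace each other. In ATL, abnormal EZH2 activity and broad changes of the H3K27 mark have been described, which is the background to combining the drug classes.

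Values are log2 signals, so a difference of 1 is 2-fold. Background was taken array by array as the 95th percentile over negative controls, 7.29 on the OR21 array and 7.19 on the combination array. A probe set counted as measured where at least 1 of these arrays lay above its background, and a level under background was set to it, so that a difference is then a bound, given as "at least" or "or lower". Array medians lay between 6.44 and 6.68 over the 8 arrays, and 7063 to 8463 named probe sets lay above background. Of the T cell markers PTPRC, CD247, CD28, CD5 and LAT were above background on all 4 MT-1 arrays (5 of 11 on the array), while CD2, CD3D, CD3E, CD3G, CD4 and LCK were not. Of the ATL markers, CCR4, IL2RA and CADM1 were above background and TNFRSF4 was not. The summed signal of the T cell markers was 13.56 on the OR21 array and 13.49 on the combination array on the log2 scale.

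Over all measured probe sets the signs were balanced, with 4238 above 0 and 4330 below 0. The differences of 1 or more were mostly toward higher signal with EPZ-6438 added. Of 8568 measured probe sets, 412 (4.81%) were higher by 1 or more on the combination array and 123 (1.44%) were lower by 1 or more. The asymmetry was stronger at the ends. There were 75 probe sets higher by 2 or more, 22 by 3 or more and 8 by 4 or more, against 2, 0 and 0 lower. Most of the transcriptome stayed close to the diagonal, with 6309 probe sets (73.6%) within 0.5 and a median difference of -0.01 over all measured probe sets. Among the 7906 probe sets above background on both arrays, 312 (3.95%) were higher and 118 (1.49%) lower by 1 or more, and the 5th to 95th percentiles ran from -0.71 to 0.90. As a mark of array noise, 35 of 2197 positive-control probe sets (1.59%) differed by 1 or more in either direction, around a median of -0.07 (SD 0.38 over probe sets). Of 612 negative-control probe sets, which lie mostly under background, 56 (9.15%) did so, around a median of -0.10 (SD 0.69). Control levels were not set to background, unlike those of the named probe sets. For 7 genes with several measured probe sets, the gap between probe sets of a gene had a median of 0.19 and a maximum of 0.38.

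**Figure D1:**
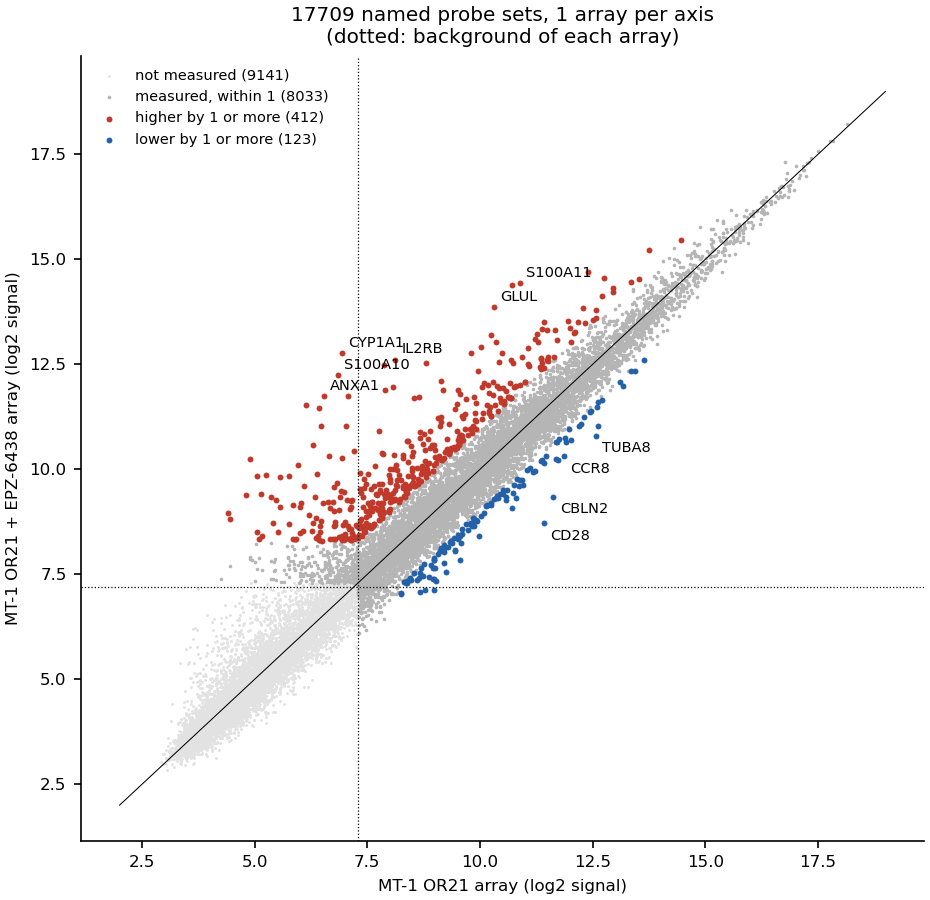
Log2 signal of each named probe set on the MT-1 OR21 array (x axis) and on the MT-1 OR21 plus EPZ-6438 array (y axis), 1 array each, with the background of each array dotted and the line of equal values drawn. The 412 red points (higher by 1 or more) reach further from the line than the 123 blue points (lower by 1 or more), and 9141 probe sets were not measured.

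Many of the higher probe sets were off before treatment. Of the 412, 212 lay under background in untreated MT-1 cells. Signal above background on the combination array alone of the 4 MT-1 arrays was seen for 85, and on the OR21 and combination arrays alone for 83. Another 191 were above background on all 4 arrays. Of the 123 lower probe sets, 116 were above background on all 4 MT-1 arrays. A lower probe set had to lie above background with OR21 to be counted, and a higher one with the combination, so these patterns are in part set by the counting rule. Of the 212 that were off in untreated MT-1, 90 (42.5%) were above background in untreated MT-2, against 292 of 933 (31.3%) of all measured probe sets that were off in untreated MT-1.

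CYP1A1 had the highest difference of all measured probe sets, and CYP1B1 was also among the genes with the highest differences. Enzymes of xenobiotic metabolism were not counted as a list. CYP1A1, a cytochrome P450 that oxidises polycyclic aromatic compounds and the best known target of the aryl hydrocarbon receptor, read 5.82 in untreated MT-1, 6.31 with EPZ-6438, 6.94 with OR21 and 12.76 with both. It stood above background only with both agents, at least 5.47 higher (at least 44.3-fold) than with OR21. CYP1B1, a related P450, read 4.03, 4.38, 7.89 and 11.89 in the same order, a difference of 4.0. It was just above background with OR21 and far above it with both agents. In MT-2, CYP1A1 was not above background on any array, and CYP1B1 read 9.79 with OR21 and 10.09 with the combination. The sequence before the CYP1A1 start is shown because it holds the core GCGTG to which the receptor and its partner ARNT bind, in capitals (250 bases, 5′ to 3′, RefSeq, GRCh38.p14).
CYP1A1, chr15:74725529-74725778, minus strand: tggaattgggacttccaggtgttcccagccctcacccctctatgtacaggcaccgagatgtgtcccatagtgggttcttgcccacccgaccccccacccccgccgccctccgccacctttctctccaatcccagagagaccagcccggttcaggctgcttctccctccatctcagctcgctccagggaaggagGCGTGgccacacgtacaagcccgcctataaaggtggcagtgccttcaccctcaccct

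Cytokines and their receptors were among the genes with the largest differences, although most of their family stayed silent. Of 75 such genes on the array 23 were measured, 8 were higher by 1 or more and 0 lower, beside 4.81% and 1.44% of all measured probe sets, with a median of 0.41. Of the 18 above background on both arrays 6 were higher, with a median of 0.24. IL2RB, the beta chain of the receptors for IL-2 and IL-15, read 7.09 in untreated MT-1, 8.04 with EPZ-6438, 8.12 with OR21 and 12.61 with both, a difference of 4.49 (22.5-fold). Each agent alone left it within about 1 log2 unit of background. IL22, a cytokine of the Th17 and Th22 type that acts on epithelia, read 4.10, 4.09, 7.07 and 11.74, at least 4.44 higher. IL26, a cytokine encoded beside IL22, read 5.14, 4.71, 7.43 and 9.77, a difference of 2.34, and IL17A was not above background with both agents. The inflammatory chemokine CCL3 read 5.30, 6.52, 7.76 and 10.90, a difference of 3.14. CXCL10, the interferon-induced ligand of CXCR3, was already expressed and read 11.33, 12.08, 11.37 and 13.33, a difference of 1.96. Smaller differences were seen for the decoy receptor IL1R2 (1.10), IL4R (at least 1.07) and the chemokine receptor CXCR4 (1.01), while IL2RG, the partner chain of IL2RB, differed by 0.45. In MT-2, IL2RB read 12.78 with OR21 and 13.17 with the combination, and the MT-1 combination array came within 1 of these levels. Of 30 genes of the list measured in MT-2, 9 were higher by 1 or more and 0 lower, with a median of 0.43. Over all probe sets measured in MT-2, 1.90% were higher and the median was 0.09.

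LAPTM5, a lysosomal membrane protein of blood cells that limits antigen receptor levels, read 6.71 in untreated MT-1, 8.16 with EPZ-6438, 7.87 with OR21 and 12.48 with both. The difference was 4.61 (24.5-fold), the largest among probe sets above background on both arrays. CD96, a receptor of T and NK cells for nectin-type ligands, read 6.18, 7.08, 8.81 and 12.52, a difference of 3.71. MB, the oxygen-binding protein myoglobin of muscle, read 6.32, 6.53, 6.42 and 11.45, at least 4.16 higher, with no signal above background without the combination. SPACA3, a lysozyme-like protein of the sperm acrosome, read 4.83, 5.07, 6.47 and 11.03, at least 3.73 higher.

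**Figure D2:**
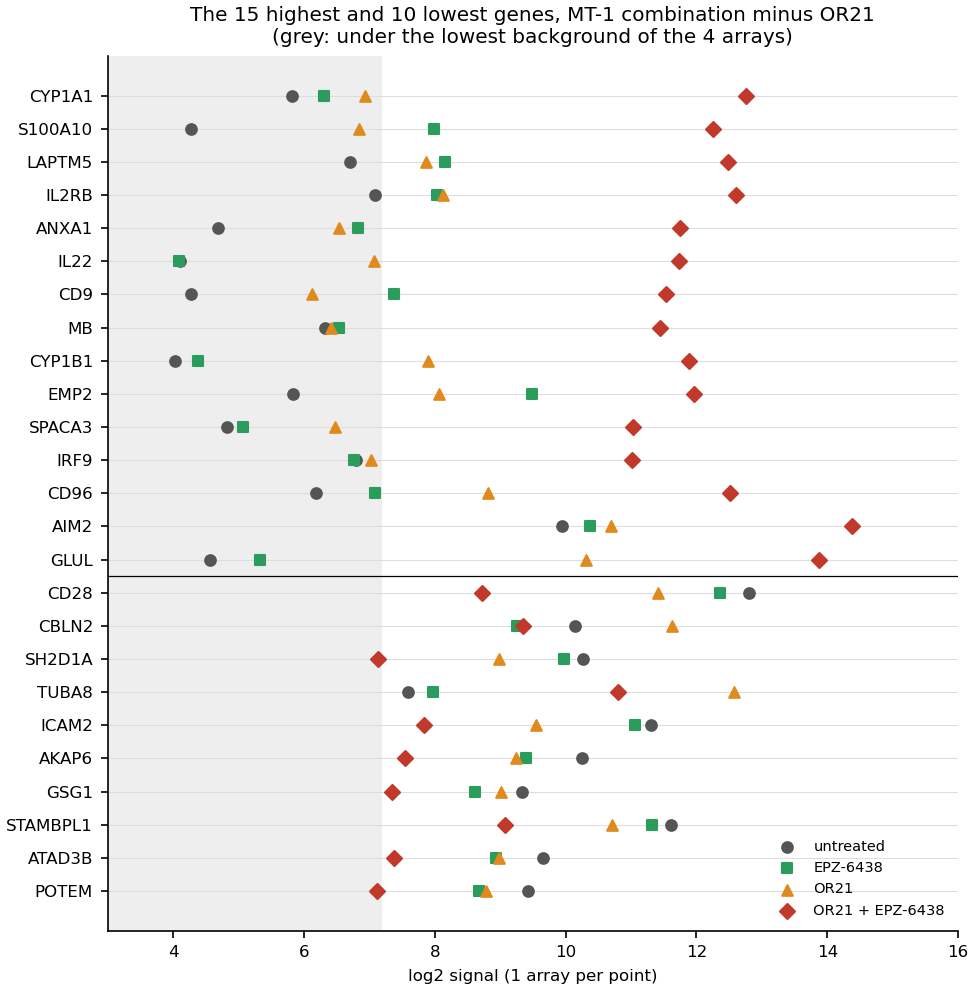
Log2 signal on the 4 MT-1 arrays (1 array per point; circle untreated, square EPZ-6438, triangle OR21, diamond both) for the 15 genes with the highest and the 10 with the lowest difference between the combination and OR21, with values under the lowest background of the 4 arrays on grey. For the highest genes the diamond stands apart to the right of the other marks. For the lowest genes other than CBLN2 and TUBA8 the OR21 array lies between the untreated and the combination array. For CBLN2 and TUBA8 it lies above both.

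Some interferon and nucleic acid sensing genes were higher by 1 or more. Of 23 measured members of the list, 9 were higher by 1 or more and 0 lower (8 of the 20 above background on both arrays). The median was 0.51, beside 4.81% higher and a median of -0.01 over all measured probe sets. For EPZ-6438 alone the median was 0.06, over the 15 members measured there. IRF9, the DNA-binding subunit of the ISGF3 complex that carries type I interferon signals, read 6.80 in untreated MT-1, 6.76 with EPZ-6438, 7.03 with OR21 and 11.02 with both, at least 3.72 higher. It was above background only on the combination array. AIM2, a sensor of cytosolic DNA that is not in the list, was already expressed and read 9.95, 10.37, 10.70 and 14.38, a difference of 3.68. STING1, the adaptor downstream of cGAS, read 6.74, 6.91, 7.84 and 10.36, a difference of 2.52. IFITM3, a membrane protein that blocks virus entry, read 10.96, 11.13, 10.49 and 12.76, a difference of 2.28, and its neighbours IFITM1 and IFITM2 both differed by 1.27. SAMD9 (1.61), SAMD9L (1.25), the RNA sensor TLR3 (1.38) and the RNA sensor RIGI (1.09) completed the 9 with IFITM1, IFITM2, IFITM3, STING1 and IRF9. Other interferon-induced genes of the list stayed within 1, such as IFI6 (0.48), IFI44 (0.44), IFIH1 (-0.15) and USP18 (-0.59). In MT-2 the differences were -0.33 for IRF9, 0.63 for STING1 and 0.46 for IFITM3. The sequences before the start of IRF9 and of IFITM3 are shown because they hold letters known from interferon signalling, in capitals: TTCNNNGAA, the site type of STAT dimers, in IRF9, and GAAANNGAA, from the core of the element bound by ISGF3 and IRF factors, in IFITM3 (RefSeq, GRCh38.p14).
IRF9, chr14:24161015-24161264, plus strand: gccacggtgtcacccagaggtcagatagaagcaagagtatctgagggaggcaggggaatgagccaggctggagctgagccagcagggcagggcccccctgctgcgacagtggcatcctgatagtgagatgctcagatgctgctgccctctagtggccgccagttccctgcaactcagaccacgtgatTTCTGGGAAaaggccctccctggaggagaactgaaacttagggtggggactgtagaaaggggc
IFITM3, chr11:320861-321110, minus strand: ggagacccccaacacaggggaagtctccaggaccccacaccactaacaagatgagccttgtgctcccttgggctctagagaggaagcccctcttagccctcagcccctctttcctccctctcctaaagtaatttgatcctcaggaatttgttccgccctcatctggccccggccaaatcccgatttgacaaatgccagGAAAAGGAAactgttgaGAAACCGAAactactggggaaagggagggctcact

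S100A10 and S100A11 of the S100 family, annexin A1 and the tetraspanin CD9 had some of the largest differences. S100A10, the partner of annexin A2 at the membrane, read 4.28 in untreated MT-1, 7.99 with EPZ-6438, 6.85 with OR21 and 12.25 with both, at least 4.96 higher (at least 31.1-fold). S100A11 read 5.20, 6.54, 10.88 and 14.43, a difference of 3.54, and was thus well above background with OR21 already. Of 8 measured S100 genes, 5 were higher by 1 or more (S100A3, S100A8 and S100A13 besides), beside 4.81% of all measured probe sets. However, 5 of the 8 were measured through the combination array alone. Of the 3 above background on both arrays 2 were higher (S100A11 and S100A13), and 11 others on the array were not measured. ANXA1, a phospholipid-binding protein that restrains inflammation, read 4.69, 6.83, 6.54 and 11.75, at least 4.45 higher. CD9, a tetraspanin that organises adhesion molecules, read 4.28, 7.38, 6.13 and 11.53, at least 4.23 higher. FSCN1, which bundles actin filaments, differed by 2.57, the nuclear lamin LMNA by 1.97 and the tetraspanin CD82 by 1.90. Of 37 measured genes of actin, adhesion and motility, 9 were higher by 1 or more and 1 was lower (ICAM2), beside 4.81% and 1.44% of all measured probe sets, with a median of 0.43. Of the 31 above background on both arrays 7 were higher. In MT-2, CD9 and FSCN1 read 16.62 and 16.70 with the combination, levels that MT-1 did not reach, and ANXA1 was not above background.

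The sequences before the starts of S100A10, LAPTM5 and ANXA1 are shown with every CG in capitals, because these genes had similar differences and very different CG content (24, 3 and 0 CG in 250 bases, RefSeq, GRCh38.p14).
S100A10, chr1:151993860-151994109, minus strand: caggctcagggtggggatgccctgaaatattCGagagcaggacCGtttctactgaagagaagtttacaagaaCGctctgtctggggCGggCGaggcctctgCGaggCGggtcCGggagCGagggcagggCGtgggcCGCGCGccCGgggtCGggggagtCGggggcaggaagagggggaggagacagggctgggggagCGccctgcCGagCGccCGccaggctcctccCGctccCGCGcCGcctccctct
LAPTM5, chr1:30757775-30758024, minus strand: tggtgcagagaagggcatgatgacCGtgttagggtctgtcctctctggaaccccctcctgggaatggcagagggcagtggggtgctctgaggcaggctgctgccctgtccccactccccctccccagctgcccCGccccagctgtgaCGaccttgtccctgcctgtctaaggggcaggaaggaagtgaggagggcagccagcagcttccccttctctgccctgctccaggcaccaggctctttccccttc
ANXA1, chr9:73151615-73151864, plus strand: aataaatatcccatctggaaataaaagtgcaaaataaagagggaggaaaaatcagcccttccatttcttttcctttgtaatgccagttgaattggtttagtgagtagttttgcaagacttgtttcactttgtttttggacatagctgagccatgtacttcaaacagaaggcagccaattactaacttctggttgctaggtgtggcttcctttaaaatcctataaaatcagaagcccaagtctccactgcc

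Some genes typical of epithelia had higher signal on the combination array of this T cell line than with OR21. Of 33 genes of the list on the array 17 were measured, 9 of them through the combination array alone, which fixes their sign. Of the 8 above background on both arrays, 3 were higher by 1 or more and 0 lower, with a median of 0.75. With the bounds, 10 of 17 passed 1, beside 4.81% of all measured probe sets. EMP2, a tetraspan membrane protein of epithelia, read 5.84 in untreated MT-1, 9.48 with EPZ-6438, 8.06 with OR21 and 11.96 with both, a difference of 3.90. KRT8, a keratin of simple epithelia, read 7.77, 7.93, 10.02 and 12.91, a difference of 2.89, and its partner KRT18 was above background only with both agents (at least 1.80 higher). The tight junction gene CLDN1 (at least 2.55 higher) and the desmosome gene DSP (at least 2.31 higher) were also above background only on the combination array. TJP1, a scaffold of tight junctions, differed by 2.14. For EPZ-6438 alone, 2 of 10 measured list members were higher than untreated by 1 or more and 0 lower, with a median of 0.42. Over all probe sets measured there, 0.348% were higher. Of 5 defining epithelial markers, KRT8 alone was above background in untreated cells and with OR21, and KRT8 and KRT19 were with EPZ-6438. With both agents EPCAM, KRT8, KRT18 and KRT19 were above background, while CDH1 was not. Their summed signal was 10.33 with OR21 and 13.14 with the combination on the log2 scale. In MT-2 the difference for KRT8 was -0.42, and EMP2, CLDN1 and DSP were not above background.

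Markers of other blood lineages stayed mostly silent. Of the B cell markers, BLK and CD79B were above background with OR21 and BLK and CD79A with both, and BLK, a kinase of the B cell receptor, read 6.70, 6.41, 11.08 and 10.32 on the untreated, EPZ-6438, OR21 and combination arrays. GNLY, the granule protein of cytotoxic cells, was at least 2.12 higher and read 3.76, 3.66, 5.15 and 9.42. HBA1, an alpha globin, read 6.94, 7.86, 8.07 and 10.00, a difference of 1.93, and the near-identical HBA2 was at least 1.45 higher. The summed signal of the defining markers went from 8.29 with OR21 to 10.06 with both for erythroid cells, from 7.87 to 9.81 for NK cells (where GNLY alone was above background), and from 11.32 to 10.71 for B cells. It was 8.31 and 8.32 for myeloid cells, of whose 6 defining markers MPO alone was above background, although TYROBP, an adaptor of myeloid and NK receptors, read 8.39 with OR21 and 9.44 with both. The sum was 8.68 and 8.98 for fibroblasts and endothelium, with COL1A2 alone above background. In the longer list of NK and cytotoxic genes 3 of 6 measured were above 0 and 3 below (median -0.02), among them the receptor KLRC2, which read 11.84 with OR21 and 11.22 with both (-0.62). MS4A1, PAX5, CD14, LYZ and NCAM1 were not above background on either array. In bulk RNA, fewer cells of a kind and less RNA per cell cannot be told apart, and the part of other cells in these results was not tested.

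Germline genes that OR21 had switched on were higher still. Of 65 cancer-testis and germline genes on the array 34 were measured, with a median of 0.63. Of these, 12 were higher by 1 or more and 0 lower, beside 4.81% and 1.44% of all measured probe sets. For EPZ-6438 alone the median was 0.00, but over 9 measured genes only. All 12 were among the 31 above background on both arrays. DAZL, an RNA-binding protein of germ cells, read 4.55 in untreated MT-1, 4.52 with EPZ-6438, 11.43 with OR21 and 13.51 with both, a difference of 2.07. CTCFL, the testis relative of the insulator protein CTCF, read 4.26, 3.81, 8.14 and 10.11, a difference of 1.97. GAGE12G, an X-linked testis antigen, read 4.92, 4.42, 12.76 and 14.56, a difference of 1.79. All of these were under background without OR21, and EPZ-6438 alone left them there. The transketolase-like TKTL1 read 8.29, 9.03, 10.17 and 12.01, a difference of 1.84, and the piRNA factor MAEL differed by 1.01. By contrast MAGEA3 (-0.18), MAGEA4 (-0.12), MAGEA6 (0.01) and CTAG2 (-0.35) stood near 0. The 5 GAGE members and the 2 SSX members among the 12 come from near-identical copies, whose probes may share signal, so that their values are not separate. In MT-2, DAZL and CTCFL were not above background on any array.

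Of 11 measured genes in the HLA class II list 1 was higher by 1 or more and 0 lower. The shares over all measured probe sets were 4.81% and 1.44%. The gene past 1 was CTSS, a lysosomal protease that trims the invariant chain (1.31). The others lay between 0.30 (a bound) and 0.93, and the median was 0.77, or 0.81 over the 10 above background on both arrays. HLA-DMA, which loads peptides, read 13.05 in untreated MT-1, 13.84 with EPZ-6438, 12.47 with OR21 and 13.40 with both. HLA-DPB1 read 14.10, 14.94, 13.39 and 14.25, and both genes were thus lower with OR21 than in untreated cells and back near the untreated level with the combination. The class II transactivator CIITA differed by 0.48 and the invariant chain CD74 by 0.54. The median for EPZ-6438 alone was 0.66, and in MT-2 for the combination against OR21 it was 0.50. Class I genes had a median of 0.17 over 16 measured, with HLA-C at 1.0, HLA-E at 0.96 and the peptide transporter TAP1 at 0.91. Of the NKG2D ligands, which mark stressed cells for NK cells, ULBP2 read 8.48 with OR21 and 10.03 with the combination (1.54), ULBP1 differed by 0.61 and MICB by 0.50. ULBP2 was also higher in MT-2 (1.02).

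Genes that restrain growth signals were higher in part. DUSP6, a phosphatase that switches off ERK, read 5.74 in untreated MT-1, 5.75 with EPZ-6438, 5.96 with OR21 and 10.10 with both, at least 2.80 higher. DUSP5, another ERK phosphatase, read 7.07, 7.12, 8.39 and 10.68, a difference of 2.30. Of 14 measured phosphatases and Sprouty feedback genes 4 were higher by 1 or more and 0 lower, beside 4.81% and 1.44% of all measured probe sets, and 3 of the 9 above background on both arrays were higher. CDKN1A, the cell cycle inhibitor p21, read 4.33, 4.70, 6.99 and 9.46, at least 2.16 higher. RB1, the retinoblastoma protein, read 9.92, 9.97, 8.60 and 10.02, so the combination array stood at the untreated level. CDKN2A, which encodes p16 and p14ARF, differed by 1.14 and CCND3, a D cyclin, by 1.03. The list of CDK inhibitors and G1 cyclins had 4 of 16 measured genes higher and 0 lower, with a median of 0.28. Of its 14 genes above background on both arrays 3 were higher, beside 3.95% of all such probe sets, and the median was 0.06. Among p53 targets 3 of 21 were higher (CDKN1A, GADD45A at 1.28 and PMAIP1 at 1.22) and 1 was lower (FBXO22 at -1.03). Both lists stand beside 4.81% higher and 1.44% lower over all measured probe sets.

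BID, a trigger of mitochondrial apoptosis cleaved by caspase 8, read 4.88, 5.28, 7.21 and 10.44 on the untreated, EPZ-6438, OR21 and combination arrays, at least 3.15 higher. The BH3 protein PMAIP1 (NOXA) read 12.58 with OR21 and 13.80 with both, BCL2L11 (BIM) differed by 0.53, and BCL2 by 0.37. TNFSF10, the death ligand TRAIL, read 6.68 with OR21 and 9.07 with the combination, at least 1.77 higher. Of genes reported as tumour suppressors or as silenced in T cell leukaemia, 7 of 21 measured were higher by 1 or more and 0 lower, beside 4.81% and 1.44% of all measured probe sets, with a median of 0.53. Among them KLF2, a factor of quiescent T cells, read 8.15, 9.46, 9.61 and 11.27, a difference of 1.67, and the p53 relative TP73 read 5.76, 6.84, 7.54 and 8.91, a difference of 1.37.

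Among metabolic genes, GLUL (glutamine synthetase) read 4.57 in untreated MT-1, 5.33 with EPZ-6438, 10.31 with OR21 and 13.87 with both, a difference of 3.56 (11.8-fold). The other 15 measured genes of glutamine and glutamate metabolism stayed within 1, and the list's median was -0.22. Metallothioneins are small proteins that bind zinc and copper. The 11 measured genes of their list, which also holds the zinc sensor MTF1 and the zinc exporter SLC30A1, had a median of 0.74, as had the 9 above background on both arrays. Of the 11, 4 were higher by 1 or more (MT1F 1.22, MT1H 1.20, MT1G 1.10, MT1E at least 1.09), beside 4.81% of all measured probe sets. Copies of this family are similar enough for probes to share signal. Sterol and fatty acid synthesis genes had 0 of 24 past 1 in either direction and a median of -0.19, and LSS (0.74) and EBP (-0.54) marked its range of named members. In the stress and unfolded protein response list, AARS1, the alanyl-tRNA synthetase, read 13.17 with OR21 and 11.99 with both (-1.18), while WARS1, the interferon-inducible tryptophanyl-tRNA synthetase, read 12.51 and 13.56 (1.05).

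Developmental genes, the classical targets of PRC2, stayed mostly under background. Of 94 developmental regulators bound by Polycomb on the array 21 were measured and 3 were higher by 1 or more. Of the 15 above background on both arrays 1 was higher, beside 3.95% of all such probe sets, and the median was 0.32. SOX2, a factor of pluripotent and neural cells, read 5.82 in untreated MT-1, 6.14 with EPZ-6438, 8.47 with OR21 and 10.56 with both, a difference of 2.09. HAND1, a factor of heart and placenta, was at least 1.51 higher and OLIG3, a neural factor, at least 1.05 higher, each above background only with both agents. Of 23 HOX genes on the array 7 were measured, 5 of them through the combination array alone, and HOXD13 was at least 1.77 higher. HOXB7, above background on both arrays, differed by 0.65. Of the enzymes that the compounds act on, those above background on both arrays differed little at the level of RNA. EZH2 read 13.51 with OR21 and 13.49 with both (-0.02), EZH1 differed by 0.52, DNMT1 by -0.25 and DNMT3A by 0.21. DNMT3B was above background only with both agents and at least 0.47 higher, a bound that does not show how large its difference was. Of the other subunits, SUZ12 stood at -0.04, RBBP7 at -0.53, and the PRC2 partners LCOR and LCORL at 0.63 and 1.0. MBD3, a subunit of the NuRD complex, was lower (-1.05) and PHC1, a PRC1 subunit, higher (1.18). SWI/SNF subunits had 0 of 18 past 1 and a median of 0.13.

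**Figure D3:**
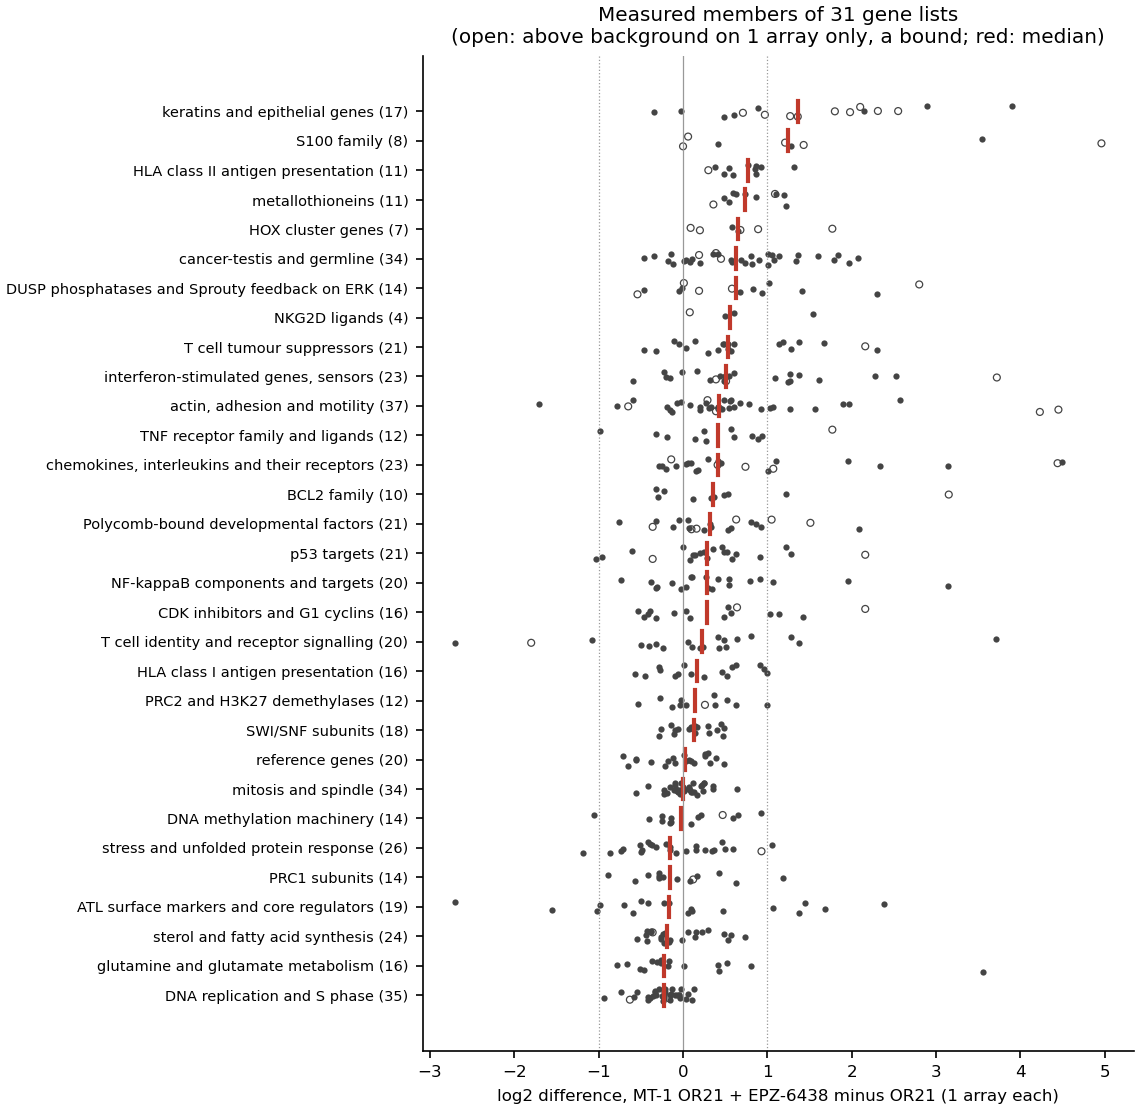
Log2 difference between the MT-1 combination and OR21 arrays (x axis) for the measured members of 31 gene lists (number measured in brackets; 1 point a gene, open where 1 array was under background and the value is a bound; red bar, median), with dotted lines at -1 and 1. Epithelial and S100 genes have medians of 1.36 and 1.25, but 9 of 17 and 5 of 8 of their points are open, and the 35 DNA replication genes lie within 1 of 0 with a median of -0.22.

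The costimulatory receptor CD28 had the lowest difference. It read 12.80 in untreated MT-1, 12.36 with EPZ-6438, 11.42 with OR21 and 8.72 with both, a difference of -2.70. SH2D1A, the adaptor SAP of SLAM receptors, read 10.27, 9.98, 8.99 and 7.13, a difference of -1.80 or lower, and CD247, the zeta chain of the T cell receptor complex, differed by -1.08. CCR8, a chemokine receptor of ATL cells and regulatory T cells, read 13.22, 13.11, 11.87 and 10.32, a difference of -1.55. MYC differed by -1.02, TNFRSF8 (CD30) by -0.99, CCR4 by -0.70 and IRF4 by -0.23. In this group OR21 alone was already below untreated cells for CD28, SH2D1A and CCR8, and the combination lay below OR21. These comparisons share the OR21 array. Others of the T cell and ATL lists were higher, with CD96 at 3.71, STAT3 at 2.38, the kinase PRKCB at 1.68, the Wnt factor LEF1 at 1.37 and the adaptor LAT at 1.28. Of 20 measured T cell genes 3 were higher and 3 lower by 1 or more (median 0.22), and of 19 ATL genes 5 were higher and 3 lower (median -0.17). The shares over all measured probe sets were 4.81% higher and 1.44% lower.

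The roles of the other low genes were not analysed as a set. CBLN2, a secreted organiser of synapses, read 10.14, 9.26, 11.63 and 9.35 on the untreated, EPZ-6438, OR21 and combination arrays, a difference of -2.29. TUBA8, an alpha tubulin, read 7.59, 7.97, 12.58 and 10.80, a difference of -1.78. Both were higher with OR21 than in untreated cells, and lower again with the combination. ICAM2, an adhesion ligand of LFA-1, read 11.31, 11.06, 9.55 and 7.83, a difference of -1.71. The remaining genes among the 10 lowest were the kinase anchor AKAP6 (-1.69), GSG1 (-1.68), the deubiquitinase STAMBPL1 (-1.64), the mitochondrial ATPase ATAD3B (-1.61) and POTEM (-1.59 or lower), the last of which has near-identical copies.

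Proliferation genes did not pass the 2-fold mark. DNA replication and S phase genes had 0 of 35 past 1, but 31 were below 0 (median -0.22), beside 4330 of all 8568 measured probe sets. The lowest were POLE2, a subunit of DNA polymerase epsilon (-0.94), and CDC45, a part of the replicative helicase (-0.73). Genes of mitosis and the spindle had 0 of 34 past 1, 17 on each side of 0 and a median of 0.00, with ANLN at 0.64 and MAD2L1 at -0.56. The 20 reference genes had a median of 0.02 and 0 past 1, with PGK1 lowest at -0.71.

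The same inhibitor given without OR21 left a far smaller mark in MT-1. On the EPZ-6438 array 28 of 8053 measured probe sets (0.348%) were higher than untreated by 1 or more and 14 (0.174%) lower. This comparison shares no array with the one against OR21. Of the 412 probe sets higher with OR21 present, 236 were measured without it, 193 of these differed in the same direction and the median was 0.33, beside -0.05 over all 8053. Where only 1 of the 2 arrays was above background, the direction was set by the counting rule. By plain signals without a background level, 302 of the 412 were higher with EPZ-6438 than untreated (median 0.27). There were 16 that passed 1 in both settings, which is 3.88% of the 412 and 57.1% of the 28. Of the 123 lower probe sets, 120 were measured and 103 differed in the same direction, with a median of -0.32 and 2 past -1. Across the 7416 probe sets above background on all 4 MT-1 arrays, the differences with and without OR21 had a Pearson r of 0.411 and a Spearman rho of 0.388. This is a description across genes, which are not independent, and the points share the normalization of the table.

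EMP2, KLF2 and LMNA were among the genes that passed 1 with EPZ-6438 alone (at least 2.02, 1.30 and 1.17) and again with OR21 present. The difference of the differences, named the excess here, was 1 or more for 172 of the 7416 probe sets (2.32%) and -1 or less for 77 (1.04%). Its highest values belonged to AIM2 (3.27), PPFIBP1, a liprin of cell adhesion sites (2.83), KRT8 (2.73), CLEC2B, a lectin ligand for an NK receptor (2.54), and ARRB1, beta-arrestin 1 (2.30). PPFIBP1 read 8.24 in untreated MT-1, 8.49 with EPZ-6438, 8.64 with OR21 and 11.72 with both, so that the combination array alone stood apart. The lowest excess values belonged to CD28 (-2.27), TUBA8 (-2.16), the meiotic regulator FBXO43 (-1.92), the myosin light chain MYL5 (-1.87) and FAM107B (-1.78). No spread exists for an excess from 4 arrays.

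**Figure D4:**
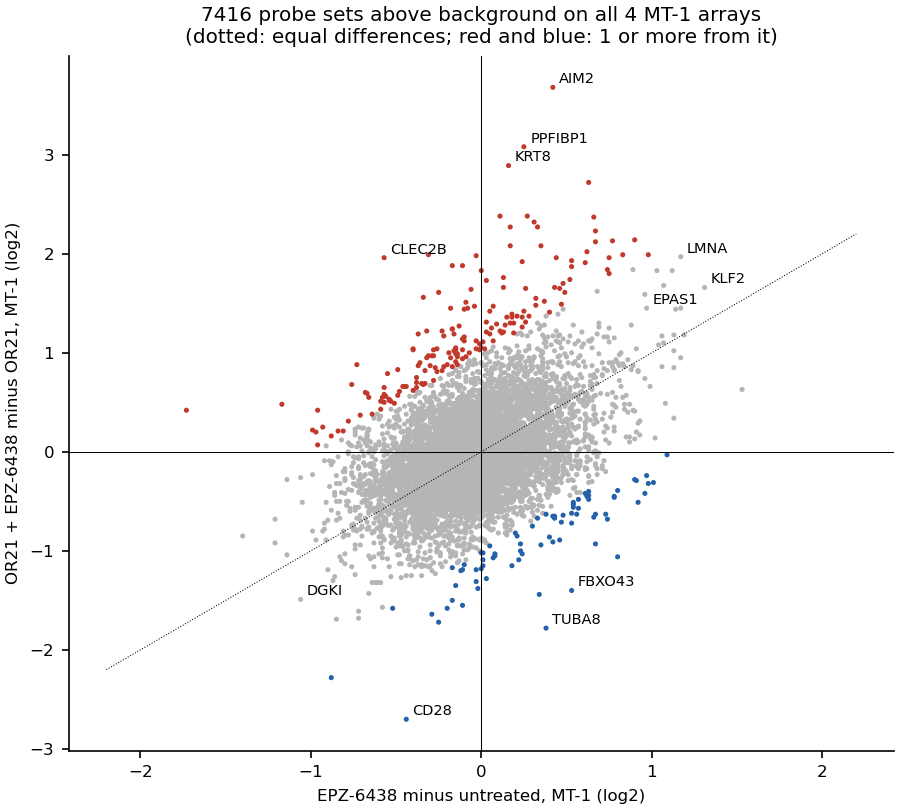
Log2 difference made by EPZ-6438 without OR21 (x axis, EPZ-6438 minus untreated) and with it (y axis, combination minus OR21) in MT-1 for 7416 probe sets above background on all 4 arrays, 1 array per condition, with the line of equal differences dotted. The 172 red points lie 1 or more above the line and the 77 blue points 1 or more below it, with AIM2 and CD28 at the ends.

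In MT-2, which received lower doses, the same contrast gave 146 of 7672 measured probe sets (1.90%) higher by 1 or more and 22 (0.287%) lower. Dose and line cannot be told apart. Of the 412 probe sets higher in MT-1, 260 were measured in MT-2, where 219 differed in the same direction with a median of 0.33, beside a median of 0.09 over all 7672 probe sets. Here too the counting rule set the direction where only 1 of the 2 MT-2 arrays was above background. There were 19 that passed 1 (4.61% of the 412 and 13% of the 146). Of the 123 lower probe sets, 85 were measured in MT-2, 50 in the same and 35 in the opposite direction, and 0 passed -1. The Pearson r between the lines was 0.269 and the Spearman rho 0.278 over 6394 probe sets above background on the 4 arrays compared.

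Among the genes past 1 in both lines, EPAS1, the hypoxia factor HIF-2 alpha, differed by 1.45 in MT-1 (7.63 with OR21, 9.08 with both) and by 1.74 in MT-2 (9.56 and 11.30). CHI3L2, a chitinase-like protein, was at least 2.95 higher in MT-1 and 1.68 higher in MT-2. LEF1 differed by 1.37 and 1.26, the actin-binding ABLIM1 by 1.16 and 1.94, the kinase PDK2, which restrains pyruvate oxidation, by 1.51 and 1.30, DCBLD2 by 1.68 and 1.28, CDKN2A by 1.14 and 1.34, and cyclin G2 (CCNG2) by 1.28 and 1.14. S100A10, among the highest in MT-1, passed 1 in MT-2 too (14.01 with OR21, 15.01 with both). LAPTM5, IL2RB, AIM2 and GLUL, all far higher in MT-1, differed by 0.43, 0.39, 0.36 and 0.13 in MT-2, where OR21-treated cells already read 12.90, 12.78, 14.09 and 11.59.

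**Figure D5:**
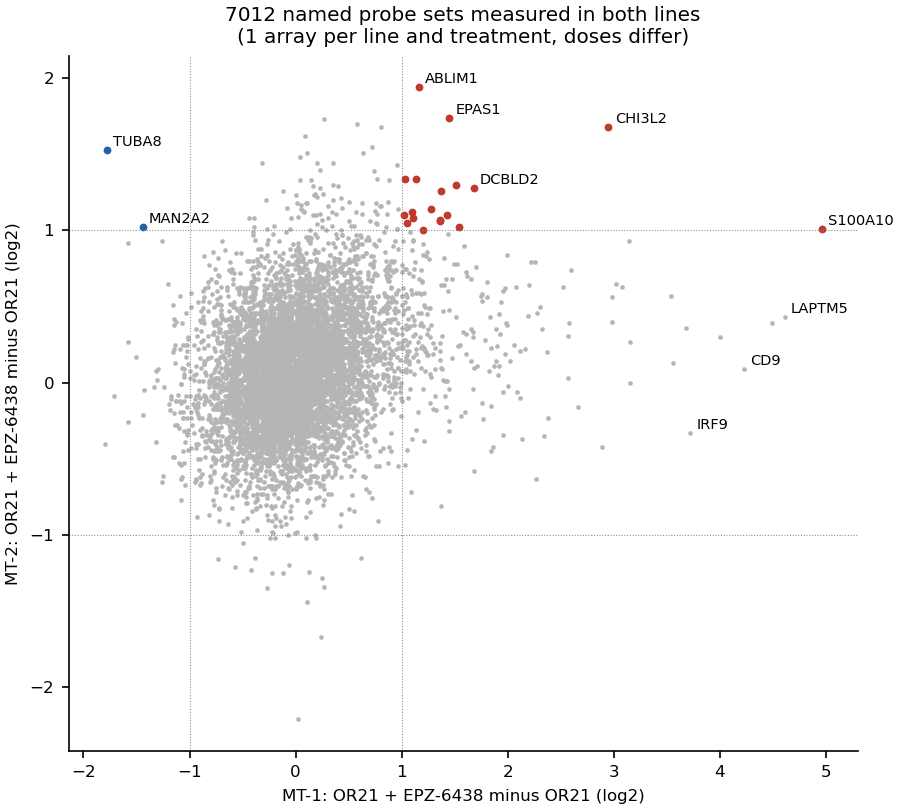
Log2 difference between the combination and OR21 arrays in MT-1 (x axis) and MT-2 (y axis) for 7012 named probe sets measured in both lines, 1 array per line and treatment, at different doses. The 19 red points passed 1 in both lines, the 2 blue points (TUBA8, MAN2A2) passed -1 in MT-1 but 1 in MT-2, and of the labelled points furthest to the right S100A10 lies at 1.01 in MT-2, LAPTM5 at 0.43 and CD9 at 0.09.

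With the lines standing in for replicates, no gene was called. A limma fit with terms for line and treatment, which left 3 residual degrees of freedom over the 8 arrays, called 0 of 9088 probe sets (0%) at a Benjamini-Hochberg adjusted p under 0.05, and the lowest adjusted p was 0.62. At an unadjusted p under 0.05 there were 709 (7.8%), 497 higher and 212 lower. EPAS1 had the lowest unadjusted p by limma (0.000175, mean difference 1.59 with SE 0.199, higher in 2 of 2 lines, adjusted p 0.62). S100A10 had a mean difference of 3.21 with SE 1.21 and LAPTM5 of 2.52 with SE 1.05 (adjusted p 0.622 and 0.637 by limma). S100A10 was at least 4.96 higher in MT-1 but 1.01 higher in MT-2, and LAPTM5 4.61 higher in MT-1 but 0.43 higher in MT-2. Without the MT-2 combination array, where the combination rests on the MT-1 array alone and that array is assumed to vary like the others, 8 probe sets were called, all higher, with a lowest adjusted p of 0.0389. Leaving out any other array called 0.

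Promoters of the higher genes covered the whole range of CG content. RefSeq gave the 250 bases before the start for 328 of 411 higher genes and 7186 of 8561 measured genes. The median was 20 CG for higher genes, 21 for measured genes and 11 for all 27305 promoters of the table. Promoters with fewer than 5 CG made up 14.6% of the higher genes, 25% of those above background on the combination array alone (17 of 68), 9.09% of the lower genes and 6.18% of measured genes, against 33.6% of named genes not measured and 35% of all. GCGTG, searched on both strands, was present in 43% of higher, 47.1% of measured and 31.9% of all promoters. GAAANNGAA, also on both strands, was in 6.71% of higher, 5.72% of measured and 7.06% of all promoters. TTCNNNGAA, which reads the same on both strands, was in 6.71%, 5.4% and 6.78% in the same order, and in 2.02% of lower promoters. GCGTG was in 49.5% and GAAANNGAA in 5.05% of lower promoters. A match is a description of letters and not of a bound site.

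Neighbouring genes on a chromosome were higher together in some places. By the order of genes in RefSeq, 80 of 411 higher genes (19.5%) had a higher gene next to them among measured genes, against 789 of 8559 measured genes (9.22%). There were 6 runs of 3 or more, made of 5 GAGE genes on the X chromosome, of IFITM1, IFITM2 and IFITM3, of MT1F, MT1G and MT1H, of LYST, NID1 and GPR137B, of SORL1, UBASH3B and GRAMD1B, and of MYO1D, TMEM98 and SPACA3. The first of these holds near-identical copies, and the IFITM and MT1 genes are close relatives.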

How the data were processed

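DNase-treated total RNA of MT-1 and MT-2 cells was hybridised as biotin-labelled cDNA to 1-colour Affymetrix arrays, per the labels' protocols. The authors deposited log2 values of 8 arrays summarised with RMA, per the submitters' processing notes. Neither RMA's version nor the genome build is named by the labels or the table. The log base is taken from RMA, and values ran from 2.14 to 18.91, above the 16-bit scanner range of 16, so a later rescaling is possible. The number of arrays, 1 per group, limits the precision.

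Of 24351 entries, 21448 were transcript probe sets. The platform annotation gave 1 symbol for 17709, several for 0 and none for 3739, and all 17709 gene identifiers were found in RefSeq. Differences, the background level (95th percentile of 612 negative controls per array) and the threshold of 1 were as described in the report. In 96 further probe sets the array above its own background lay under that of the other, and no difference is given. The fit across lines used limma 3.58.1 in R 4.3.3 (lmFit, eBayes, Benjamini-Hochberg) on named probe sets above background on at least 2 of 8 arrays, and was tested on simulated data. Other steps used Python 3.11.15 and pandas 2.3.3.

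Named genes were the 15 highest and 10 lowest, the 5 highest and 5 lowest above background on both arrays, up to 4 members of each of 36 gene lists with the largest difference of at least 0.5, the 5 highest and 5 lowest excess values, up to 8 genes past 1 in both lines, and the enzyme targets. Other list members are named to complete a count or show a range and were chosen after their values were seen. The members and lists were chosen with earlier results of these data known. A gene with several probe sets was named by the one with the highest mean. Alternatives were other background levels, scalings and filters and leaving out arrays. Promoter sequences were matched by gene identifier to RefSeq (GRCh38.p14), whose gene order also gave neighbours.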

Additional observations from a re-analysis of the deposited data

Results flagged for a closer look

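TUBA8, an alpha tubulin, and MAN2A2, an alpha-mannosidase of the Golgi, differed in opposite directions in the cell lines, and these differences between lines were not tested, as each is 1 array a side at different doses. TUBA8 differed by -1.78 in MT-1 (12.58 with OR21, 10.80 with both agents) and by 1.53 in MT-2 (9.42 and 10.95). MAN2A2 differed by -1.44 in MT-1 (8.87 and 7.44) and by 1.02 in MT-2 (7.75 and 8.77). They were the only probe sets among the 123 lower ones in MT-1 to pass 1 upward in MT-2. None of the 412 higher probe sets passed -1 in that line (0 of 260 measured).

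Probe sets without a gene symbol, which entered none of the comparisons above, also carried signal. Of 3739 such transcript probe sets 1273 were measured, 43 (3.38%) were higher by 1 or more on the MT-1 combination array than on the OR21 array, and 11 (0.864%) were lower.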

How the results depend on the processing

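The excess of higher over lower probe sets kept its direction under each alternative run. The count of 412 higher became 811 with no background level, 162 with the 99th percentile of the negative controls as background and 645 with a filter on the table median in place of the background level. The count of 123 lower became 54 with the 99th percentile and 79 with cyclic loess scaling. Adding the probe sets without a symbol, chosen after seeing the data, gave 455 and 134. Scaling shifted the median of all measured probe sets to between -0.08 (arrays centred on the median) and 0.06 (cyclic loess), and the higher probe sets made up 68.1% to 86% of those past 1, against 77%. Of the 36 lists, 11 had a median of 0.5 or more, a mark set after seeing the data, and 7 did with no background level. The ATL list's median turned from -0.17 to 0.10 with no background level and to 0.08 with the table median filter. The r with EPZ-6438 alone became 0.356 with that filter and 0.263 over all named probe sets (the latter chosen after seeing the data), and the r with MT-2 became 0.184 and 0.147. The limma count of 0 ran from 0 to 8 over the fits that left out 1 array each, with 8 without the MT-2 combination array. Of the differences of named genes under an alternative, 1026 moved by less than 0.244, the median residual SD of the limma fit, and 86 by more, and of list medians 257 and 28. No named gene's difference of 1 or more in size, and no list median of 0.5 or more in size, changed sign. Signals near background are given as bounds, and weak transcripts cannot be told from silent ones here. The limma fit has the cell line as a block, and with the combination and OR21 arrays alone, paired by line with 1 residual degree of freedom, it called 0 too (918 at an unadjusted p under 0.05). The labels give no replicate numbers to pair by.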

Other observations

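Some gene groups not described above were put together after their values were seen, and their values are a description only. The aryl hydrocarbon receptor and its partners and known targets had 8 measured genes. Of these, 5 were higher by 1 or more and 0 lower, beside 4.81% and 1.44% of all measured probe sets. The median was 1.90 in MT-1, or 1.31 for the 6 above background on both arrays. It was 0.38 for EPZ-6438 alone, where CYP1A1, CYP1B1 and IL22 were not measured. In MT-2, where CYP1A1 and IL22 were not measured, it was -0.01. AHR itself, the ligand-activated receptor, read 10.55 in untreated MT-1, 11.08 with EPZ-6438, 10.68 with OR21 and 12.61 with both, a difference of 1.93. NQO1, a quinone reductase, read 7.63, 7.22, 9.87 and 11.73, a difference of 1.86, and the partner ARNT differed by 0.76. TIPARP, another known target, differed by 0.13, so the group did not move as a whole. Among JAK, STAT and IRF genes, beside 4.81% of all measured probe sets, 3 of 11 measured were higher by 1 or more. These were IRF9, STAT3 and IRF1, an interferon-induced factor that read 6.22, 6.30, 6.93 and 10.27 and was at least 2.98 higher. STAT5A (0.28), STAT5B (0.08), JAK1 (0.48) and TYK2 (0.04) stayed near 0. SERPINB9, an inhibitor of granzyme B, was at least 2.57 higher, and the tetraspanins TSPAN6 and TSPAN9 differed by at least 2.55 and by 2.26.

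Mitochondrial genes, also grouped after their values were seen, had mostly small and mostly negative differences. Of 71 measured genes of the mitochondrial ribosome 65 were below 0, beside 4330 of all 8568 measured probe sets. Their median was -0.45 with 0 past 1, while the median was -0.33 for EPZ-6438 alone and -0.06 in MT-2. Of 23 measured genes of mitochondrial protein import 19 were below 0, with a median of -0.34, led by TIMM13, a chaperone of the intermembrane space (11.28, 10.54, 10.57 and 9.33 on the untreated, EPZ-6438, OR21 and combination arrays, a difference of -1.24). TOMM40, the import pore, differed by -0.87 and TIMM9 by -0.82, while TIMMDC1 (0.40) and TIMM10B (0.31) were above 0.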
